A study of Mus musculus with 11 samples.

Results

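The genes of the platelet-derived growth factor (PDGF) ligands and their receptors were described across infarcted and sham hearts, 7 of the 55421 genes in the deposited table of read counts. They were taken by symbol: the ligand genes Pdgfa, Pdgfb, Pdgfc and Pdgfd, the receptor genes Pdgfra and Pdgfrb, and the receptor-like gene Pdgfrl. The RNA came from 11 female C57BL/6J mice aged 8 weeks. In 8 mice the left anterior descending artery (LAD) had been ligated to cause a myocardial infarction (MI), and the infarct with its border zone was taken 3 days later. Of these, 4 mice received GI254023X, an inhibitor of the protease ADAM10 (A10i, 100 mg/kg by osmotic minipump), and 4 received its solvent DMSO. The other 3 mice had a sham operation and DMSO, and their samples were labelled as healthy tissue. The labels give no time after surgery for the sham mice. The inhibitor was given to the whole animal, and no group was left untreated. None of the sham mice sequenced received A10i, so the drug without an infarct was not measured in these RNA data. The paper did treat sham-operated mice with A10i for leukocyte counts, and reported no effect on those in blood or tissue. The comparisons set infarcted against sham hearts and the inhibitor against its solvent.

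PDGFs are secreted dimers that bind receptor tyrosine kinases at the cell surface, and a bound ligand pairs the receptor chains and starts their kinase activity. In the heart, endothelial cells make PDGF-B, which holds pericytes and smooth muscle cells at the vessel wall through receptor beta, while receptor alpha marks fibroblasts. PDGF-C and PDGF-D are secreted with a blocking domain that a protease must cut off before they can bind, whereas the chains of PDGF-A and PDGF-B are trimmed inside the cell by proteases of the furin family.

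All 7 genes are protein-coding in Ensembl on the GRCm38 (mm10) assembly. Pdgfa (ENSMUSG00000025856) lies at chr5:138976014-138997370 on the minus strand, Pdgfb (ENSMUSG00000000489) at chr15:79995874-80014977 on the minus strand, Pdgfc (ENSMUSG00000028019) at chr3:81036416-81214040 on the plus strand and Pdgfd (ENSMUSG00000032006) at chr9:6168584-6378850 on the plus strand. Pdgfra (ENSMUSG00000029231) lies at chr5:75152292-75198215 on the plus strand, Pdgfrb (ENSMUSG00000024620) on chromosome 18, and Pdgfrl (ENSMUSG00000031595) at chr8:40926212-40990785 on the plus strand. Counts cover the exons of each gene. Pdgfa shares 813 exon bases with 6330403L08Rik, an antisense gene with 457 to 1338 counts per library. The strand setting of the counting is not given in the sources used here, so reads in that overlap may belong to either gene and the values of Pdgfa are uncertain to that extent. No other member shares exon bases with a gene of more than 3 counts in any library.

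The total gene counts lay between 21702623 and 29511768 per library. Values below are normalized read counts, that is counts divided by the library's effective size (trimmed mean of M values, TMM) and brought to the mean of all 11 libraries. Of 12 fibroblast marker genes 4 were called higher in DMSO and 8 in A10i mice against sham, and of 10 cardiomyocyte marker genes 5 and 2 were called lower. Scaling by library size alone would move the median of all genes by 0.21 on the log2 scale between DMSO and sham and by 0.18 between A10i and sham. A call means an adjusted p under 0.01 in edgeR's quasi-likelihood test, two-sided, with Benjamini-Hochberg adjustment over all genes tested. All 7 members passed the filter on low counts in all 3 comparisons.

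Promoter windows were at hand for 4 of the 7 members in RefSeq (GRCm38.p6). Those of Pdgfc, Pdgfd and Pdgfra, ligand and receptor genes whose levels lay apart between sham and DMSO hearts in both directions, are printed as 250 bases ending just before the RefSeq start, 5′ to 3′ on the strand of the gene. Pdgfc is at chr3:81036166-81036415, Pdgfd at chr9:6168236-6168485 and Pdgfra at chr5:75152001-75152250, all on the plus strand. Capitals mark matches of the motifs searched.
Pdgfc: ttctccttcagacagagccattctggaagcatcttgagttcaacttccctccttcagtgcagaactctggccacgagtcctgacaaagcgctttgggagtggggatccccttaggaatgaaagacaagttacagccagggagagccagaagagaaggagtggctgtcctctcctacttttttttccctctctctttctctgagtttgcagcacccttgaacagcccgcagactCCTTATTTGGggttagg
Pdgfd: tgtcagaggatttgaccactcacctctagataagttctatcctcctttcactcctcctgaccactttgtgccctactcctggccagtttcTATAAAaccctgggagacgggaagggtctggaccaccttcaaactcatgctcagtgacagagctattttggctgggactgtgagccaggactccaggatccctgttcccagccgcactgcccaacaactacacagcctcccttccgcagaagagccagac
Pdgfra: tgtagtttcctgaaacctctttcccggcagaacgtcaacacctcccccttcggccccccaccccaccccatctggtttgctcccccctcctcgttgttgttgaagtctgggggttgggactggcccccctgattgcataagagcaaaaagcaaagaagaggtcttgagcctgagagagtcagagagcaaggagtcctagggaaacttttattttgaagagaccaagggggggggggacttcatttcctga
Both strands were searched for the TATA box TATAAA, the promoter element CCAAT, the Sp1-type motif GGGCGG, the AP-1 motif TGANTCA and the CArG box that serum response factor binds, and no match in these windows overlapped another motif. The Pdgfc window held a CArG box, CCTTATTTGG, 17 to 8 bases before the start, a match that reads on both strands and that 1.47% of the 32851 promoter windows hold. The Pdgfd window held TATAAA at 160 to 155 bases before the start, a motif in 12.4% of windows. The Pdgfra window held none of the motifs searched. The G and C content was 50.8% for Pdgfc, 53.6% for Pdgfd and 54.4% for Pdgfra, beside a median of 52.4% over all windows. A match is a description of these letters and no binding was measured.

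Pdgfd was the ligand transcript with the clearest difference between DMSO and sham hearts. Its normalized counts were 702, 699 and 610.3 in sham mice, 329, 446.5, 426 and 368 in DMSO mice, and 533, 468, 663 and 562 in A10i mice. Each DMSO mouse lay below each sham mouse and below each A10i mouse, while the A10i and sham groups overlapped. Pdgfd was called lower after MI with DMSO, 392 ± 53.8 (SD, n = 4) against 670.4 ± 52.1 (n = 3), a 1.71-fold drop with a log2 fold change of -0.77 (SE 0.12, edgeR adjusted p = 0.00105). Without any 1 library the adjusted p was at most 0.00814. In A10i mice the mean was 557 ± 81.1 (n = 4), which differed from sham by a log2 fold change of -0.27 (SE 0.11, edgeR adjusted p = 0.0852) and was not called.

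Pdgfc, the other ligand that needs proteolytic activation, was among the rarest members and the lowest per length. Sham mice had 67.6, 64.1 and 44.3 normalized counts, DMSO mice 88.4, 109.7, 74.0 and 124.5, and A10i mice 163, 81.1, 108.7 and 112.7. All 8 infarcted hearts lay above all 3 sham hearts. The log2 fold change was 0.75 (SE 0.24, edgeR adjusted p = 0.0301) in DMSO and 0.99 (SE 0.25, edgeR adjusted p = 0.0111) in A10i mice against sham, so that neither passed 0.01 in edgeR. In A10i mice the adjusted p was 0.00922 without A116 and 0.00467 without A117, and DESeq2 gave 0.00176. It was 0.0278 without S1, 0.0337 without S2, 0.0536 without S3 and 0.0181 with limma-voom. The raw counts of Pdgfc were 43 to 161 per library, the smallest basis of any ligand.

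Pdgfb, the endothelial ligand of receptor beta, had 1145, 981 and 1176 normalized counts in sham mice, 1269, 1599, 1426 and 1476 in DMSO mice, and 1398, 1326, 1441 and 1151 in A10i mice. The DMSO mice lay above all sham mice, whereas A120 of the A10i group lay within the sham range. The log2 fold change against sham was 0.39 (SE 0.10, edgeR adjusted p = 0.0127) in DMSO and 0.28 (SE 0.09, edgeR adjusted p = 0.0376) in A10i mice. Without A105 the DMSO comparison passed, with an edgeR adjusted p of 0.0064, and without S2 it was 0.0705.

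Pdgfa, the ligand of receptor alpha, varied little. Its normalized counts were 545, 624 and 661 in sham, 636, 692.5, 742 and 636 in DMSO, and 652, 590.5, 614 and 556.5 in A10i mice. The 3 groups overlapped. The log2 fold change against sham was 0.15 in DMSO (95% confidence interval -0.07 to 0.36) and -0.01 in A10i mice (-0.21 to 0.18), neither called (edgeR adjusted p = 0.254 and 0.923).

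**Figure D1:**
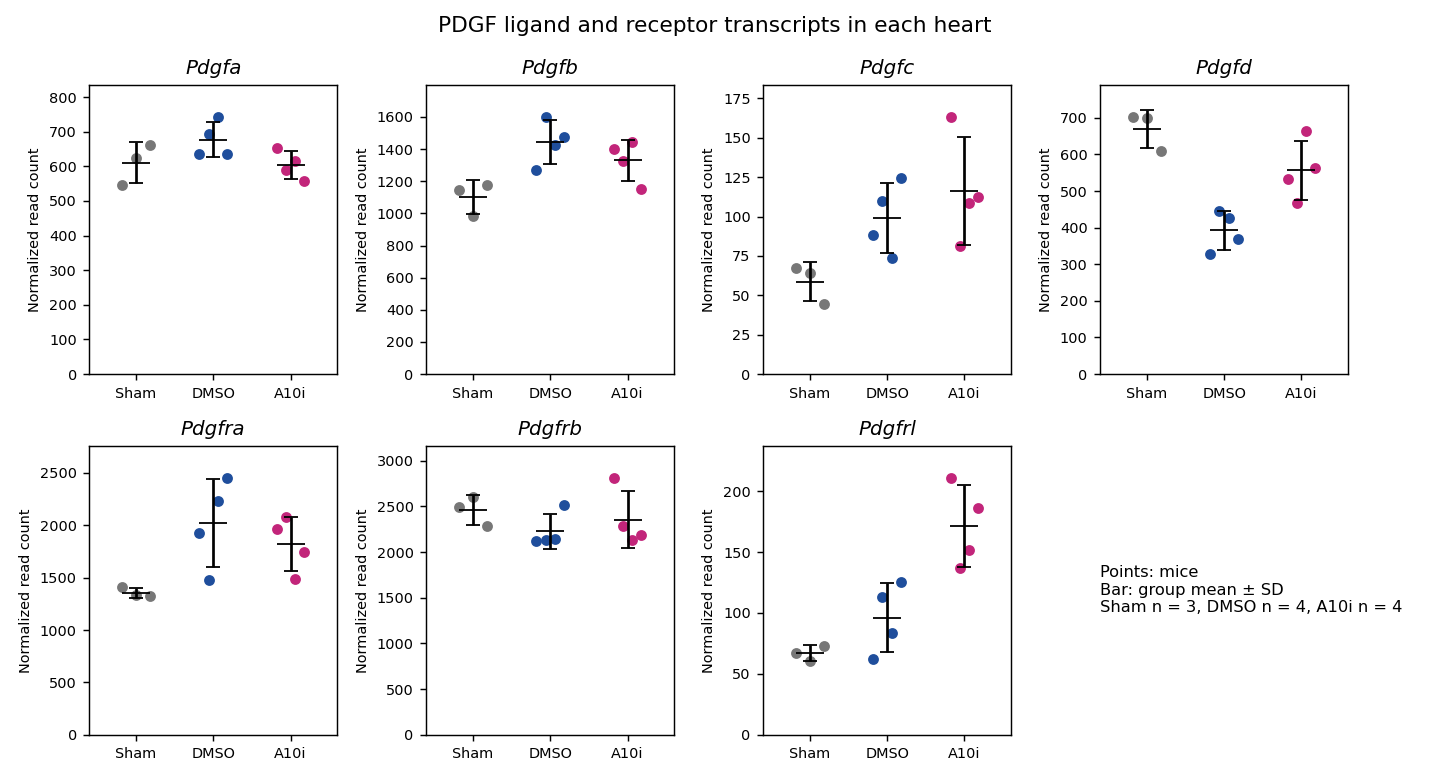
Normalized read counts (vertical axes, from 0) of the 7 PDGF genes in each heart of the sham, DMSO and A10i groups, with bars for the mean ± SD. Pdgfd is lowest in the 4 DMSO hearts (329 to 446.5), Pdgfrl is highest in the 4 A10i hearts (136.5 to 211), and Pdgfa and Pdgfrb overlap in all groups.

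Pdgfra, which encodes receptor alpha, a chain whose ligands include PDGF-A and PDGF-C, was higher in infarcted hearts. Sham mice had 1410, 1330 and 1325 normalized counts, DMSO mice 1930, 1477, 2230 and 2452, and A10i mice 1963, 2079, 1488 and 1749. Each infarcted heart lay above each sham heart, with a wider spread after MI (SD 47.6 in sham, 422 in DMSO, 260 in A10i). Against sham, Pdgfra was called in A10i mice, 1.35-fold higher (log2 fold change 0.43, SE 0.10, edgeR adjusted p = 0.0094). The larger difference in DMSO mice, 1.49-fold (log2 0.58, SE 0.15, edgeR adjusted p = 0.0165), was not called. Both stood close to the threshold. The A10i call was lost without S1 (edgeR adjusted p = 0.0304), S2 (0.0439), S3 (0.0442), A116 (0.0175), A117 (0.0166) or A120 (0.02), with limma-voom (0.0121) and with all 11 libraries in 1 fit (0.053), and a DMSO call appeared without A127 (0.00173).

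Pdgfrb, which encodes receptor beta, the chain bound by PDGF-B and PDGF-D, was the most abundant member and did not separate the groups. Its normalized counts were 2498, 2600 and 2280 in sham, 2117, 2135, 2148 and 2515 in DMSO, and 2812, 2286, 2131 and 2189 in A10i mice. One heart in each infarcted group, A129 and A116, stood above the rest of its group. The log2 fold change against sham was -0.15 in DMSO (95% confidence interval -0.35 to 0.06, edgeR adjusted p = 0.223) and -0.06 in A10i mice (-0.28 to 0.16, edgeR adjusted p = 0.663).

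Pdgfrl encodes a secreted protein that resembles the ligand-binding part of the receptors and has no kinase domain. Sham mice had 67.6, 60.2 and 73.2 normalized counts, DMSO mice 62.5, 113, 83.3 and 125.5, and A10i mice 211, 136.5, 152 and 186. Each A10i heart lay above each sham and each DMSO heart, while A105 of the DMSO group lay within the sham range. Pdgfrl was called 2.56-fold higher in A10i than in sham hearts, 171 ± 33.5 (SD, n = 4) against 67.0 ± 6.50 (n = 3), with a log2 fold change of 1.36 (SE 0.18, edgeR adjusted p = 0.000572). The adjusted p stayed at or below 0.00507 without any 1 library. In DMSO mice the log2 fold change was 0.52 (SE 0.25, edgeR adjusted p = 0.122).

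Of the 7 members, 0 were called higher and 1, Pdgfd, lower in DMSO than in sham hearts, where 12.9% of the 17117 genes tested were called higher and 9.6% lower. Between A10i and sham hearts 2 members, Pdgfra and Pdgfrl, were called higher and 0 lower, beside 13.7% and 9.11% of 16971 genes. The groups did not overlap for 4 members (Pdgfb, Pdgfc, Pdgfd and Pdgfra) in DMSO against sham and for 3 (Pdgfc, Pdgfra and Pdgfrl) in A10i against sham, beside 48.7% and 48.3% of all genes. These shares are near the background, and both comparisons use the same 3 sham mice. When the mean of both infarcted groups was set against sham in 1 fit of all 11 libraries, a comparison added after the data were seen, Pdgfrl was called higher (log2 0.94, SE 0.22, edgeR adjusted p = 0.00436) and Pdgfd lower (log2 -0.52, SE 0.11, edgeR adjusted p = 0.00283), beside 14.9% and 11.5% of 17480 genes. Without S1 or S2 neither was called, and without S3 Pdgfrl was not, with edgeR adjusted p-values of at most 0.0282 for Pdgfrl and 0.0201 for Pdgfd. Pdgfb, Pdgfc and Pdgfra had edgeR adjusted p-values of 0.0112, 0.0107 and 0.0128 in that fit and were not called. The tools differed here, as DESeq2 called these genes (adjusted p = 0.00375, 0.00181 and 0.00291).

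**Figure D2:**
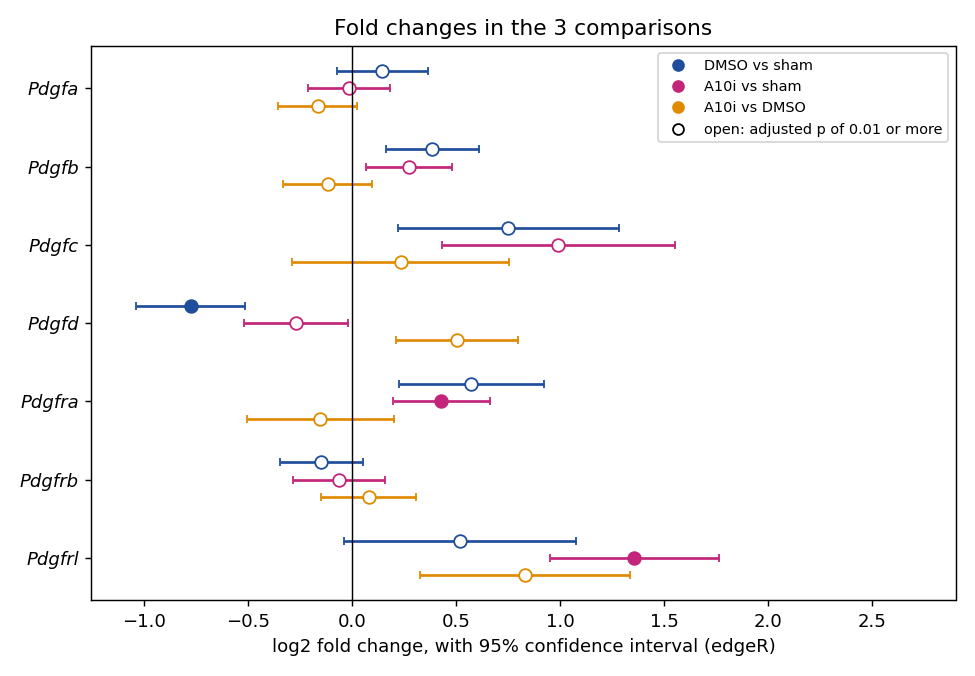
log2 fold changes of the 7 PDGF genes (horizontal axis) with 95% confidence intervals in the 3 comparisons, with filled points for an edgeR adjusted p under 0.01. The filled points are Pdgfd in DMSO against sham (-0.77) and Pdgfra (0.43) and Pdgfrl (1.36) in A10i against sham.

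Between A10i and DMSO hearts, Pdgfd and Pdgfrl were the members that stood apart. The A10i mean was 1.42-fold higher for Pdgfd (log2 0.50, SE 0.13, unadjusted p = 0.00315, edgeR adjusted p = 0.147) and 1.78-fold higher for Pdgfrl (log2 0.83, SE 0.23, unadjusted p = 0.00417, edgeR adjusted p = 0.16). In both genes each of 4 A10i mice exceeded each of 4 DMSO mice, which is the smallest p an exact permutation test of 4 against 4 can give, two-sided (p = 0.0286). Neither was called. With edgeR 0% of the 16792 genes tested were called higher and 0% lower, 13.8% had an unadjusted p under 0.05 and 8.12% did not overlap. DESeq2 called 1.32% of 17508 genes at 0.01, none of them a member, with adjusted p-values of 0.0357 for Pdgfd and 0.0248 for Pdgfrl.

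The other 5 members overlapped between A10i and DMSO hearts. The log2 fold change was -0.16 for Pdgfa (95% confidence interval -0.35 to 0.02), -0.12 for Pdgfb (-0.33 to 0.10) and 0.23 for Pdgfc (-0.28 to 0.75). It was -0.15 for Pdgfra (-0.51 to 0.20) and 0.08 for Pdgfrb (-0.15 to 0.31). These intervals allow changes of either sign, the widest for Pdgfc, the member with the fewest reads. Neutrophil markers moved between the same groups: 0 of 7 tested were called by edgeR, all 7 were lower in A10i mice at an unadjusted p under 0.05, and their summed level was 73.0 to 147 CPM (counts scaled to a fixed effective library size) in DMSO and 14.1 to 50.5 in A10i mice. Of the 12 fibroblast markers, 0 were called and 4 were higher in A10i mice at an unadjusted p under 0.05, with a median log2 fold change of 0.43 beside 0.0034 for all genes. Of 6 epicardial markers, 0 were called and 5 were higher in A10i mice at that p, with a median log2 fold change of 0.75, and of 10 macrophage markers 0 were called and 5 were higher, with a median of 0.40. The part of these lists in the values of Pdgfd and Pdgfrl was not tested.

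Per length, the levels could be compared between genes. In sham hearts Pdgfrb had 449 ± 29.8 normalized counts per kilobase of exon (SD, n = 3), followed by Pdgfb with 264.5 ± 25.2, Pdgfd with 213 ± 16.5, Pdgfa with 196 ± 19.0 and Pdgfra with 135 ± 4.75. Pdgfrl with 21.4 ± 2.08 and Pdgfc with 11.5 ± 2.46 came last. The sham ranges of Pdgfd and Pdgfa overlapped, and the other neighbours in this order did not. In DMSO hearts Pdgfd took the fifth place, at 124 ± 17.1 (n = 4), below Pdgfa at 217 ± 16.4 and Pdgfra at 202 ± 42.1, whose ranges overlapped. In A10i hearts Pdgfd, at 176.5 ± 25.7 (n = 4), overlapped with Pdgfra at 181.5 ± 25.9. Pdgfrb and Pdgfb remained first and second in both infarcted groups.

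Ratios of 2 genes within a heart do not depend on the scaling of libraries. The read count of Pdgfra was 0.564, 0.512 and 0.581 times that of Pdgfrb in sham hearts, 0.911, 0.692, 1.04 and 0.975 times in DMSO hearts and 0.698, 0.910, 0.698 and 0.799 times in A10i hearts. All infarcted hearts lay above all sham hearts. The mean log2 ratio was -0.86 ± 0.10 (SD, n = 3) in sham, -0.16 ± 0.26 (n = 4) in DMSO and -0.37 ± 0.18 (n = 4) in A10i hearts.

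The read count of Pdgfc was 0.0969, 0.0923 and 0.0734 times that of Pdgfd in sham hearts, 0.270, 0.246, 0.174 and 0.339 times in DMSO and 0.307, 0.174, 0.165 and 0.201 times in A10i hearts. Again the infarcted and sham hearts did not overlap, with log2 ratios of -3.52 ± 0.21 in sham, -1.998 ± 0.40 in DMSO and -2.29 ± 0.41 in A10i hearts. Pdgfb reads were 1.57 to 2.10 times those of Pdgfa in sham hearts, 1.92 to 2.32 times in DMSO and 2.07 to 2.34 times in A10i hearts, with overlap.

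With 3 sham mice against 4, the exact permutation test cannot go below p = 0.0571, which the ratios Pdgfra to Pdgfrb and Pdgfc to Pdgfd reached in both infarcted groups (0.128 after Benjamini-Hochberg adjustment over the 9 tests of 3 ratios). Between A10i and DMSO hearts the exact permutation p was 0.286 for Pdgfra to Pdgfrb, 0.571 for Pdgfb to Pdgfa and 0.343 for Pdgfc to Pdgfd.

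**Figure D3:**
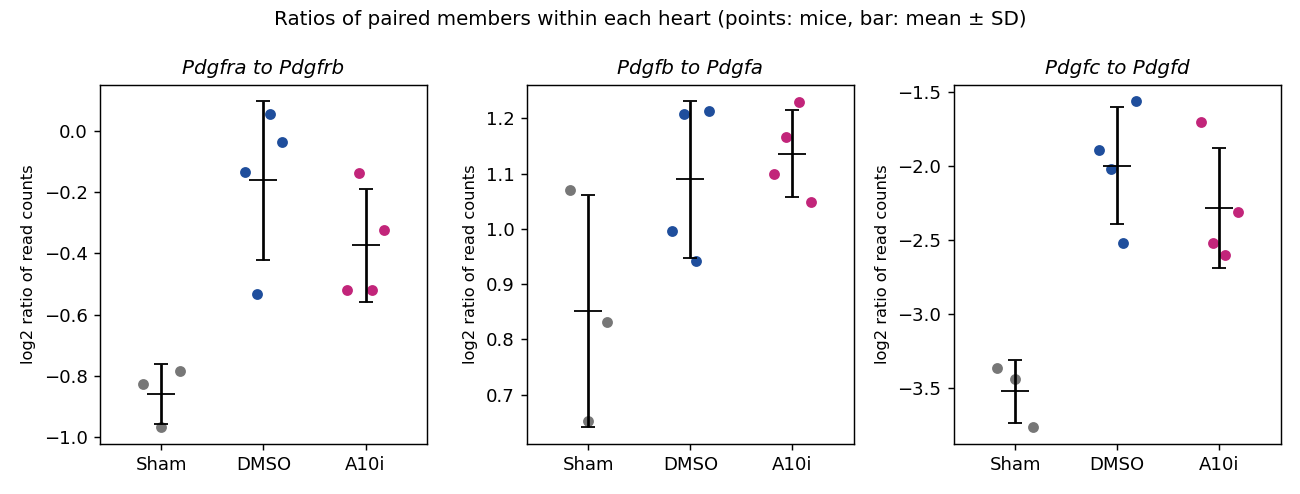
log2 ratios of read counts (vertical axes) of Pdgfra to Pdgfrb, Pdgfb to Pdgfa and Pdgfc to Pdgfd in each heart, with bars for the mean ± SD. For Pdgfra to Pdgfrb and Pdgfc to Pdgfd all 8 infarcted hearts lie above the 3 sham hearts.

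In bulk tissue, fewer cells of a type and less RNA per cell cannot be told apart. The marker counts below stand beside 12.9% of all genes called higher and 9.6% lower in DMSO, and 13.7% and 9.11% in A10i hearts. Of 12 fibroblast markers, 4 were called higher in DMSO and 8 in A10i against sham, 0 lower, and their summed level was 2843 to 2980 CPM in sham, 3210 to 6977 in DMSO and 6511 to 9502 in A10i hearts. The 4 called in DMSO hearts were Col1a1, Col1a2, Col3a1 and Mfap5. Gsn had a log2 fold change of -0.70 there (edgeR adjusted p = 0.0208), and the other markers had 0.09 to 0.28. Pdgfra minus the mean of all 12 markers, on the log2 CPM scale, was -1.07 ± 0.05 (SD, n = 3) in sham, -1.21 ± 0.45 (n = 4) in DMSO and -1.82 ± 0.19 (n = 4) in A10i hearts. This difference depended on the collagen genes of the list: without Col1a1, Col1a2 and Col3a1, a comparison added after the data were seen, it was -0.86 ± 0.08 for sham hearts, -0.47 ± 0.37 with DMSO and -0.96 ± 0.18 with A10i, with overlap of all 3 groups. Pdgfrl minus the same mean, at -5.37 ± 0.10 in sham hearts, was -5.60 ± 0.12 with DMSO and -5.22 ± 0.19 with A10i, and the sham range overlapped with both others while those of the A10i and DMSO hearts all but met. For Pdgfd, sham hearts had a difference of -2.08 ± 0.14, DMSO hearts -3.55 ± 0.27 and A10i hearts -3.52 ± 0.26, so that the infarcted groups overlapped on this scale. Pdgfrb minus the same mean was -0.21 ± 0.13 for sham, -1.04 ± 0.27 for DMSO and -1.45 ± 0.09 for A10i hearts, with all infarcted below all sham hearts. Without the 3 collagen genes Pdgfrl had differences of -5.16 ± 0.08 for sham, -4.86 ± 0.33 for DMSO and -4.36 ± 0.29 for A10i hearts, where the A10i hearts lay above all sham hearts and overlapped with the DMSO hearts. Pdgfd then had -1.87 ± 0.17, -2.82 ± 0.12 and -2.67 ± 0.26, and Pdgfrb 0.00125 ± 0.16, -0.31 ± 0.15 and -0.59 ± 0.19, with all infarcted below all sham hearts for both genes.

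Of 10 mural cell markers, the genes of pericytes and smooth muscle, 1 was called higher and 5 lower in DMSO, and 2 higher and 4 lower in A10i against sham. Rgs5, Kcnj8, Abcc9 and Notch3 were called lower in both groups and Higd1b in DMSO alone. Mcam was called higher in both and Cnn1 in A10i alone. The 10 genes summed to 1503 to 1581 CPM in sham, 836 to 1045 in DMSO and 945 to 1158 in A10i hearts. The mean of their log2 CPM, which weighs each gene alike, did not fall in this way, at 5.47, 5.31 and 5.48. Pdgfrb minus this mean was 1.12 ± 0.05, 1.14 ± 0.14 and 1.04 ± 0.20 on the log2 CPM scale in sham, DMSO and A10i hearts. Of 10 endothelial markers, 1 was called higher and 1 lower in each infarcted group, with summed levels of 1324 to 1342, 1119 to 1274 and 1326 to 1465 CPM. For Pdgfb minus their mean, sham hearts had -0.995 ± 0.12, DMSO hearts -0.55 ± 0.12 and A10i hearts -0.78 ± 0.12. Platelets also carry PDGF. Of 8 platelet markers, Gp1bb, Gp1ba, Gp6 and Treml1 were too low to test, with Gp1bb at 0 in all sham and A10i libraries. Of the 4 tested against sham, 2 were called higher in each infarcted group, Pf4 and Ppbp in DMSO and Pf4 and Itga2b in A10i hearts. Gp9 was not called in either (edgeR adjusted p = 0.811 in DMSO and 0.073 in A10i hearts). The 8 genes summed to 11.6 to 15.4 CPM in sham, 30.1 to 63.0 in DMSO and 25.5 to 58.7 in A10i hearts.

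Cardiomyocyte markers, which define the labelled tissue, were present in all libraries, with 0 of 10 higher and 5 lower in DMSO and 2 lower in A10i against sham. They summed to 96190 to 97620 CPM in sham, 45330 to 66500 in DMSO and 56120 to 76630 in A10i hearts. Neutrophil markers summed to 1.12 to 2.12 CPM in sham hearts, where Ly6g was at 0, and all 7 tested were called higher in each infarcted group. Activated fibroblast markers were called higher for 6 of 9 genes in each infarcted group against sham, with 0 lower. Their median log2 fold change was 2.65 in DMSO and 3.45 in A10i hearts. Proliferation markers were called higher for 0 of 8 genes in DMSO and 8 of 8 in A10i hearts. Of the fibroblast, mural, endothelial and cardiomyocyte markers none was at 0 in any library. The part of these markers in the members' levels was not tested.

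**Figure D4:**
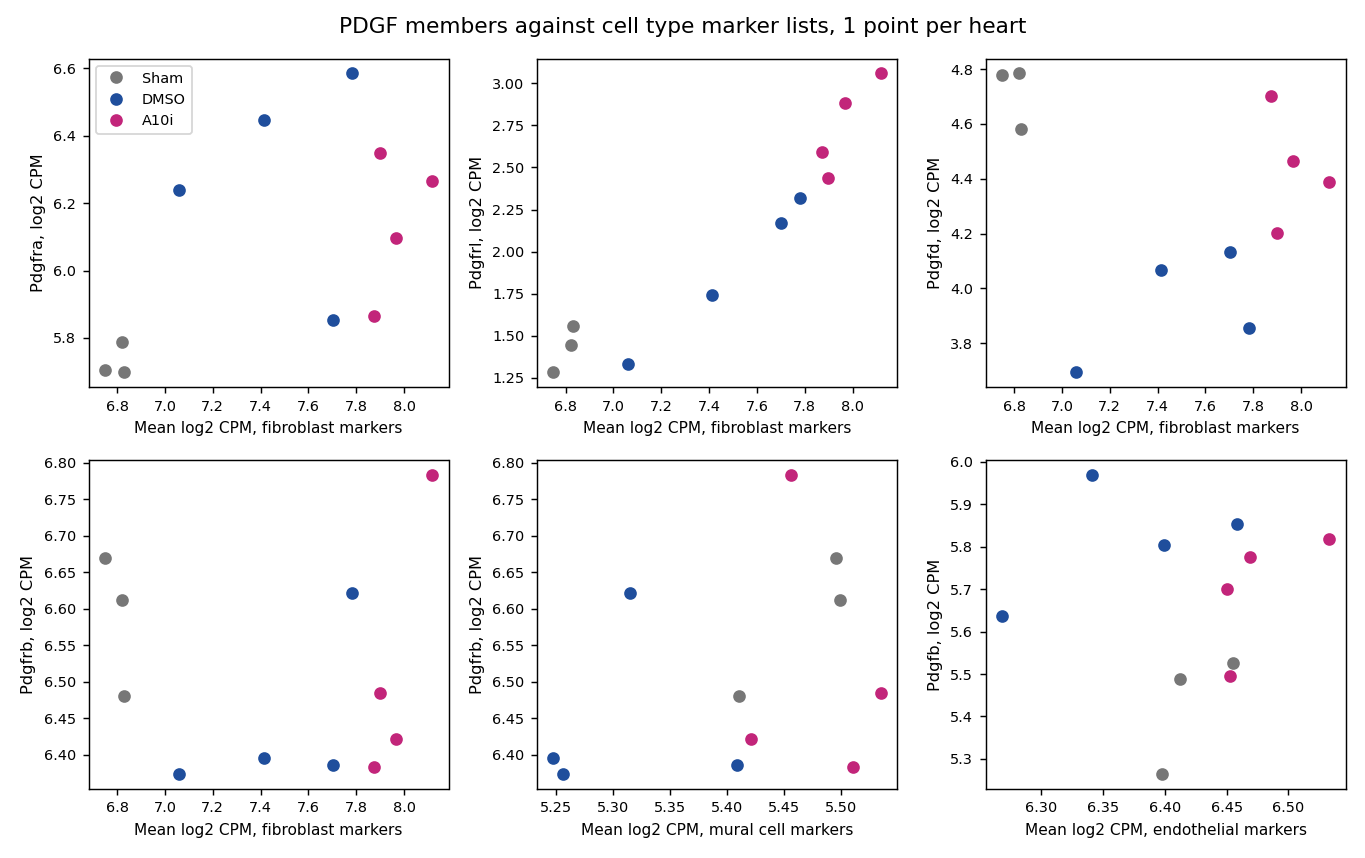
Level of Pdgfra, Pdgfrl, Pdgfd, Pdgfrb and Pdgfb (vertical axes, log2 CPM) against the mean of a cell type marker list (horizontal axes, log2 CPM), 1 point per heart. Pdgfrl lies -5.72 to -5.06 from the mean of the fibroblast markers in all 11 hearts, while Pdgfd lies nearer to them in sham (-2.08) than in DMSO hearts (-3.55).

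The proteases that process PDGF precursors were measured beside the ligands. Of 7, the same number were called in each infarcted group against sham, 3 higher and 1 lower, with a median log2 fold change of 0.36 in DMSO and 0.26 in A10i mice, where the median of all genes tested was 0.0021 and -0.0054. Over all genes tested, 12.9% were called higher and 9.6% lower in DMSO, and 13.7% and 9.11% in A10i mice. St14, which encodes matriptase, a protease that can cut PDGF-D, rose by 2.38 on the log2 scale in DMSO (SE 0.40, edgeR adjusted p = 0.00174) and by 2.27 in A10i mice (SE 0.29, edgeR adjusted p = 0.000444). Plau, the urokinase gene, whose product also cuts PDGF-D, rose by 1.74 (edgeR adjusted p = 0.00883) and 1.47 (0.00418). Plat, the gene of tissue plasminogen activator, which cuts PDGF-C, rose by 1.09 (edgeR adjusted p = 0.000616) and 0.90 (0.000488), and Pcsk6, of the furin family, fell by 0.98 (0.00109) and 0.51 (0.00283). In DMSO hearts St14 and Plau were called higher and Pdgfd lower. In A10i hearts both protease genes were called higher as well, and Pdgfd was not called. A relation between these genes was not tested.

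Phosphatases, ubiquitin ligases and inhibitors that end or limit receptor signalling were called higher for 9 of 12 genes in DMSO and 7 of 12 in A10i mice against sham, with 0 lower. Both shares called higher are above those of all genes tested, 12.9% in DMSO and 13.7% in A10i mice, where 9.6% and 9.11% were called lower. The median log2 fold change of the 12 genes was 0.68 and 0.49. In DMSO mice Socs1 rose by 1.82 (SE 0.34, edgeR adjusted p = 0.00281), Ptpn6, the blood cell phosphatase SHP-1, by 1.40 (0.00123), Spry4 by 1.07 (0.000433) and Ptpn1, a phosphatase that acts on PDGF receptors, by 0.96 (0.0011). In A10i mice Socs1 rose by 1.93 (edgeR adjusted p = 0.00126), Ptpn6 by 1.54 (0.00303), Spry4 by 0.90 (0.000976) and Dusp6 by 0.77 (0.00465). Of 10 macrophage markers, 6 were called higher in DMSO and 8 in A10i mice against sham, with medians of 0.90 and 1.34. Their summed level was 410.5 to 435.5 CPM for sham, 606 to 985 for DMSO and 765 to 1415 for A10i hearts, and none was at 0 in any library. The part of these cells in the values of Ptpn6, Socs1 and Csf1r, a gene on that list, was not tested.

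Of 29 adaptors and effectors that act below the receptors, 3 were called higher and 6 lower in DMSO mice and 2 higher and 5 lower in A10i mice, with medians of -0.08 and 0.00023. The shares called higher are below those of all genes tested, 12.9% in DMSO and 13.7% in A10i mice. Those called lower are above the shares of all genes, 9.6% and 9.11%. Pik3r1, the regulatory subunit of PI3-kinase that docks on the receptors, fell by 1.02 in DMSO (edgeR adjusted p = 0.000649) and 0.70 in A10i mice (0.0017). Plcg1, a phospholipase that docks there too, fell by 0.68 (edgeR adjusted p = 0.000366) and 0.57 (0.000374). Stat3 rose by 0.90 (edgeR adjusted p = 0.000611) and 0.62 (0.0026), and Src, a kinase recruited to active receptors, by 0.88 (0.00688) and 0.98 (0.00162).

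Of 6 proteins that bind PDGFs or act with their receptors, 1 was called higher and 1 lower in DMSO and 2 higher in A10i mice. The shares over all genes tested were 12.9% higher and 9.6% lower in DMSO, and 13.7% and 9.11% in A10i mice. Lrp1, an endocytic partner of receptor beta, rose by 0.67 (edgeR adjusted p = 0.00355) and 0.68 (0.00556). Sparc, a matrix protein that binds PDGF-B, rose by 1.49 in A10i mice (edgeR adjusted p = 0.000246) and had a log2 fold change of 1.09 in DMSO mice (0.011). Nrp1, a co-receptor, fell by 0.64 in DMSO mice (edgeR adjusted p = 0.000433).

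Of the 5 VEGF ligands, the nearest relatives of the PDGFs, 2 were called higher and 1 lower in DMSO mice and 1 each in A10i mice. Among all genes tested, 12.9% were called higher and 9.6% lower in DMSO, and 13.7% and 9.11% in A10i mice. These shares also stand beside the counts of receptor kinases below. Vegfd rose by 1.09 (edgeR adjusted p = 0.00601) and 1.30 (0.000481), and Vegfb fell by 0.63 (0.00624) and 0.49 (0.00832). Pgf rose by 2.03 in DMSO mice (edgeR adjusted p = 0.00136) and had a log2 fold change of 1.18 in A10i mice (0.0114), which was not called. Of 6 related receptor kinases, 0 were called higher and 2, Flt1 (-0.39, edgeR adjusted p = 0.00631) and Kdr (-0.35, 0.00698), lower in DMSO mice. In A10i mice 3 were called higher, Flt3 (1.65, edgeR adjusted p = 0.00906), Csf1r (0.74, 0.00424) and Flt4 (0.42, 0.00265). Between A10i and DMSO mice edgeR called 0 genes of any of these lists. At an unadjusted edgeR p under 0.05, A10i mice had higher Pcsk6 (1 of 7 proteases), Nrp1 (1 of 6 binding proteins) and Grb10 (1 of 29 adaptors and effectors). Csf1r and Kdr (2 of 6 receptor kinases) were higher too. Ptpn2 and Ptpn12 (2 of 12 phosphatases, ligases and inhibitors) and Vegfa and Pgf (2 of 5 VEGF ligands) were lower. These genes were named after their values were seen, and 13.8% of all 16792 genes tested had such a p.

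The genes whose log2 CPM followed a member most closely over the 11 libraries were found among 13365 genes, as a description, since group, composition and depth are shared by the points. For Pdgfd they were Sh3tc2 (Pearson r = 0.986), Sparcl1 (0.981) and Ecm2 (0.970). For Pdgfrl they were Igfbp7 (0.982), Clec11a (0.981) and Rgs10 (0.975), and for Pdgfc Dck (0.975), Serpinh1 (0.973), a collagen chaperone, and Il1rl2 (0.965). For Pdgfb they were Ldb2 (0.947), Gm48909 (0.936) and Sf3b4 (0.926). Pdgfrb (Rcbtb2, 0.903) and Pdgfa (Cog1, 0.874) had the least close leading partner. With the group means removed, the closest genes to Pdgfrl were Sfrp2 (0.976), Fap (0.975) and Ppic (0.972), and those to Pdgfrb were Sh3pxd2b (0.980), Kif21b (0.973) and Tbrg1 (0.965).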

How the data were processed

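Poly(A) RNA of 11 mouse hearts was sequenced as strand-specific read pairs. Per the labels and the study's methods, the authors aligned the pairs to mm10 with GSNAP and used featureCounts (2.0.1) to assign unique alignments to Ensembl genes. The deposited values are raw counts per gene, whole numbers without normalization. The 92 spike-in sequences, with 14 to 55 counts per library and at most 0.000194% of counts, were left out. Replicates are mice with separate libraries, and pairs within a group differed beyond counting error (chi-square per degree of freedom 4.04 to 60.9).

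Each pair of groups was fitted alone in R 4.3.3 with edgeR 4.0.16 (filterByExpr, TMM, robust quasi-likelihood F-test). DESeq2 1.42.0, limma-voom (limma 3.58.1), RLE and upper quartile normalization, library size alone, no filter, a joint fit, 0.05 as the threshold and leaving out every library in turn were the alternatives. Log2 CPM used a prior count of 2 and ratios a pseudocount of 0.5, or 5 as the alternative. Ratios within a heart were compared by two-sided exact permutation tests. Promoter windows came from RefSeq (GRCm38.p6).

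The members and all gene lists were chosen with earlier results of these data known. All members were named, with up to 4 called genes of each list and comparison that had the largest change, any gene whose role is described, and up to 3 genes most similar to a member, by r over genes with a mean log2 CPM of at least 1, of which those of Pdgfra are not reported here. The fits of both infarcted groups against sham were added after the data were seen.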

Additional observations from a re-analysis of the deposited data

Results flagged for a closer look

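In the DMSO group, A129 had 2515 normalized counts of Pdgfrb, while the other 3 mice had 2117 to 2148. The gap to the nearest mouse was 0.923 of the group's range, more than Dixon's 95% critical value allows for 4 samples. This was 1 of 20 groups of values tested this way, and chance flags about 1 in 20. A129 also had the highest summed fibroblast markers of its group (6977 CPM). Its summed cardiomyocyte markers (45330 CPM) and mural cell markers (836 CPM) were the lowest of that group. The part of these markers in its Pdgfrb value was not tested.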

How the results depend on the processing

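The drop of Pdgfd in DMSO mice and the rise of Pdgfrl in A10i mice against sham were called under all alternatives run, and 0 members were called between A10i and DMSO mice under any of them. The number of members called higher in DMSO against sham rose from 0 to 3 at a threshold of 0.05, to 2 with DESeq2, library size alone or no filter, to 1 in the joint fit, and was 0 to 1 without single libraries. In A10i against sham it changed from 2 to 4 at 0.05 or with library size alone, to 3 with DESeq2 or no filter, to 1 with limma-voom or the joint fit, and was 1 to 2 without single libraries. For both infarcted groups against sham it was 4 with DESeq2 and 0 to 2 without single libraries, and the number lower was 0 to 1. With library size alone the log2 fold change of Pdgfrb against sham turned to 0.0663 in DMSO and 0.13 in A10i mice, and that of Pdgfa in A10i mice to 0.18, all uncalled. Without single libraries Pdgfa in A10i against sham ran from -0.0897 to 0.0457, Pdgfrb in A10i against DMSO from -0.0115 to 0.144 and the log2 ratio of Pdgfb to Pdgfa between them from -0.00286 to 0.0879. Apart from the scalings and fewer samples, the cause was not tested. Counting error weighs most on Pdgfc and Pdgfrl, with 43 to 208 counts per library, where the other members had at least 305.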
